A study of Mus musculus with 6 samples.

Results

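The sodium-potassium pump genes described here were 7 genes, namely 5 of the FXYD regulators (Fxyd1, Fxyd2, Fxyd3, Fxyd5 and Fxyd6) and 2 beta subunits of the pump (Atp1b1 and Atp1b3). They were read by 14 of the 45037 tested probe sets, which are groups of short probes for 1 transcript on the array. A probe set was taken when the platform annotation gave it exactly 1 gene and that gene was 1 of the 7, and 18193 genes had such a probe set in all. These genes were selected on measured values, since Fxyd2 was picked for the size of its signal difference between the 2 groups of mice. The values below, counts past a threshold included, are therefore a description of these genes and no independent evidence.

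The RNA came from mammary endothelial cells of FVB/N mice aged 9 weeks. Cells were freed with collagenase, sorted with an antibody to CD31 (the product of Pecam1), and placed in Trizol. The deleted group had the genotype PyMT;Fsp-cre;Ets2db/loxP (3 samples) and the control group PyMT;Ets2db/loxP (3 samples). All 6 samples therefore carried PyMT, the polyoma middle T oncogene, together with 1 conventional Ets2 knockout allele aimed at the DNA-binding domain (db) and 1 conditional loxP allele. The groups differed by Cre under the promoter of fibroblast specific protein 1, which was used to remove the loxP allele from fibroblasts and not from the sorted cells. The comparison asks how endothelial cells differ when the fibroblasts around them lack Ets2. For the control samples, 1 label (the source) denies an oncogene, but the genotype, title and description all give PyMT, and the genotype was followed. The study calls the samples biological replicates.

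The pump exports sodium and imports potassium at the cost of ATP, and the gradient it builds drives much of the other transport across the plasma membrane. Its catalytic alpha subunit needs a glycosylated beta subunit to fold and to reach the cell surface. FXYD proteins are short proteins with 1 membrane span, named for a conserved motif, which bind the pump and tune its affinity for ions in a tissue-dependent way. Other alpha subunits than the one named below were not analysed here.

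Signal is given on the log2 scale, as the robust multichip average (RMA) of the probes, and differences are deleted minus control. Each error of a mean is the SD of 3 arrays, and each interval is the 95% interval of a linear model fitted to all probe sets (limma). Array medians lay between 7.02 and 7.07. Ets2 had 14.43, 14.30 and 14.50 in the deleted samples, against 14.48, 14.41 and 14.26 in the control samples. These Ets2 values overlapped, and they are no check of the labels because the deletion was directed at other cells. Pecam1 averaged 11.69 in the deleted and 11.30 in the control samples. The 8 endothelial markers lay between percentiles 89.3 and 98.5 of signal over all tested probe sets. The 8 epithelial markers lay between percentiles 85.2 and 99.4, so epithelial transcripts were present in these CD31-sorted samples, with Epcam at 12.46 in the deleted and 12.35 in the control group, and Krt8 at 13.75 in the deleted and 13.90 in the control group.

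Of all 14 probe sets, 9 were lower and 5 were higher in the deleted samples, against 47.3% of all tested probe sets that were lower by any amount. The median difference of the 14 was -0.18, and that of all tested probe sets was 0.01. Without Fxyd2 the median over the other 10 was -0.11, with 6 of 10 lower. Of these 10 probe sets 5 read Atp1b1, so they do not stand for 10 genes. By the brightest probe set of each gene, 4 of the 7 genes were lower, Fxyd2 among them, and 3 were higher. The deleted and control values did not overlap at 4 lower probe sets (3 of Fxyd2 and 1 of Atp1b1) and at 1 higher probe set (Fxyd1). Over all tested probe sets such separation was seen for 6.44%, 2.83% in the lower and 3.61% in the higher direction. At the limits the study used (a fold change over 2 and p under 0.05 without adjustment), only 1 of the 14 passed, a lower probe set of Fxyd2, the gene picked for this same difference. Of all tested probe sets 0.129% passed these limits, 0.0777% as lower and 0.0511% as higher. No probe set of these or any other genes passed an adjusted p of 0.05 in limma (0.0% of 45037, smallest adjusted p 0.9999), while 934 (2.07%) had an unadjusted p under 0.05.

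**Figure D1:**
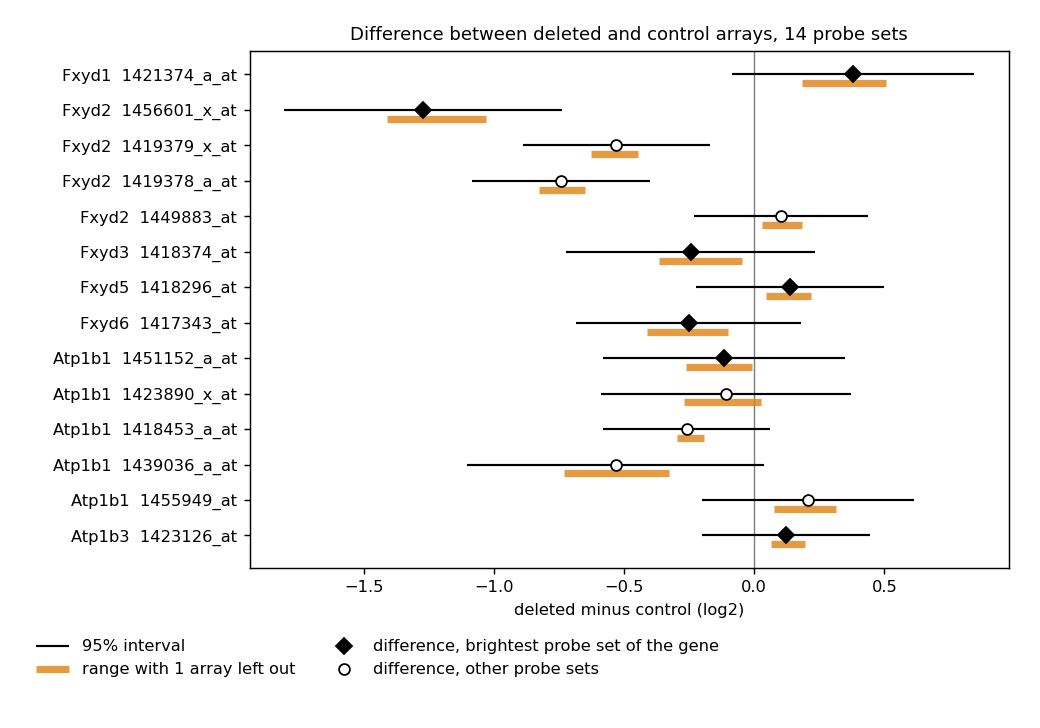
Difference between deleted and control arrays (deleted minus control, log2, horizontal axis) for the 14 probe sets; diamonds mark the brightest probe set of a gene, open circles its others, black lines the 95% interval and orange bars the range when 1 array is left out. Fxyd2 stands apart at -1.27, its other probe sets lie between -0.74 and 0.10, and the remaining genes lie between -0.53 and 0.38.

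Fxyd2 encodes the gamma subunit of the pump, best known from kidney tubules, where it lowers the affinity of the pump for sodium. Its signal was dim to middling on these arrays, where RMA compresses differences. The brightest probe set, 1456601_x_at, was annotated to an expressed sequence tag or cDNA. It lay at percentile 51.4 of mean signal over all tested probe sets, and the other 3 at percentiles 49.7, 47.4 and 35.6. The signal was 6.03, 6.72 and 6.79 in the deleted samples, against 7.85, 7.88 and 7.63 in the control samples. All 3 deleted samples lay below all 3 control samples, with a gap of 0.84 between the highest deleted and the lowest control value, and the deleted sample 1 was lowest. The means were 6.51 ± 0.42 in the deleted and 7.79 ± 0.14 in the control group, a difference of -1.27 (SE 0.23, interval -1.81 to -0.74), or 2.42-fold lower signal in the deleted group. The difference ran between -1.41 without the deleted sample 3 and -1.03 without the deleted sample 1. Among all genes read by their brightest probe set, this was the difference ranked 4 in size on the lower side. That rank restates why the gene was chosen.

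The other 3 probe sets of Fxyd2 were compared with this one. At 1419378_a_at, annotated to a coding RefSeq transcript, the signal was 6.49, 6.40 and 6.42 in the deleted samples, against 7.36, 7.17 and 7.01 in the control samples. The groups were again separate, and the difference was -0.74 (SE 0.15, interval -1.08 to -0.40), or 1.67-fold lower in the deleted group. At 1419379_x_at, also annotated to a coding transcript, the deleted samples had 6.77, 6.63 and 6.83, against 7.44, 7.30 and 7.08 in the control samples. Here too no deleted value reached a control value, with a smaller difference of -0.53 (SE 0.15, interval -0.89 to -0.17), or 1.44-fold lower. The suffix a marks probes shared by further transcripts of the same gene. The suffix x, which the brightest probe set also carries, marks sets in which some probes may match other genes. At 1449883_at, annotated to a non-coding transcript of the gene, the signal was 6.06, 5.75 and 5.93 in the deleted samples, against 5.88, 5.81 and 5.74 in the control samples. These values overlapped, and the difference was 0.10 (SE 0.14, interval -0.23 to 0.44).

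The 4 probe sets therefore gave 3 lower differences of unequal size and 1 near 0, and the mean over the 4 was -0.61. Over the 6 arrays the brightest probe set correlated with 1419378_a_at at r = 0.89 and with 1419379_x_at at r = 0.87, values that hold the group difference itself. Once each group's mean was removed, r was -0.03 with 1419378_a_at and 0.18 with 1419379_x_at, while 1419378_a_at and 1419379_x_at still followed each other at r = 0.87. The deleted sample 1 shows this directly, being the lowest of the 3 deleted samples at 1456601_x_at and the highest at 1419378_a_at. The 3 lower probe sets thus shared the order of the groups. The brightest did not share the full order of the samples within a group with 1419378_a_at or 1419379_x_at, though the control sample 3 was the lowest control sample at all 3. The fourth, 1449883_at, did not share the group order, and with the group means removed its r was -0.56 with the brightest, 0.68 with 1419379_x_at and 0.61 with 1419378_a_at.

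**Figure D2:**
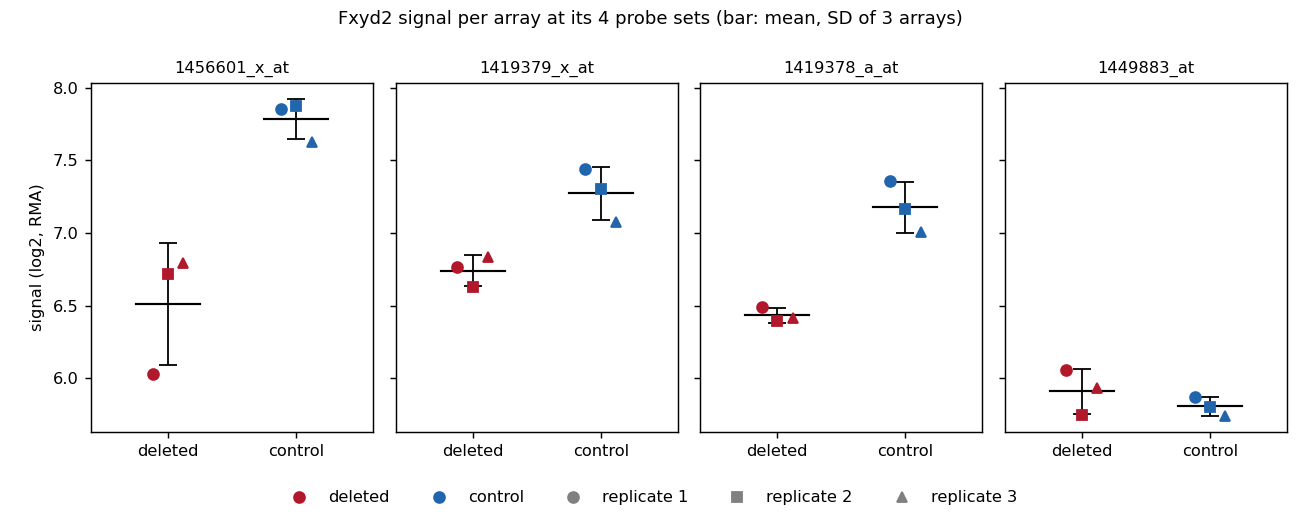
Fxyd2 signal per array (log2 RMA, vertical axis) at its 4 probe sets, deleted samples in red and control samples in blue, with lines for the mean and SD of 3 arrays. The groups are separate at 1456601_x_at, 1419379_x_at and 1419378_a_at, and overlap at 1449883_at.

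The 5 genes whose brightest probe set followed that of Fxyd2 most closely over the 6 arrays were Mpzl2 (r = 0.99), Ccdc73 (r = 0.99), Dsc2 (r = 0.99), Syt10 (r = 0.97) and Lox (r = 0.97). With 6 arrays in 2 groups, such r values mostly restate a difference between the groups, and none was tested. The genes named below as similar to other members were likewise the highest of 18192 compared, untested. Some of them were dim, such as Gm19723 and Phex at signal percentiles 9.35 and 5.07. Mpzl2, an adhesion protein of the immunoglobulin superfamily, had 10.02, 10.16 and 10.20 in the deleted samples, against 10.48, 10.47 and 10.45 in the control samples (difference -0.34). Dsc2, a desmosomal cadherin, had 9.94, 10.34 and 10.25 in the deleted samples, against 10.72, 10.70 and 10.57 in the control samples (difference -0.49). Lox, lysyl oxidase, which cross-links collagen and elastin, had 8.71, 9.17 and 9.35 in the deleted samples, against 9.83, 9.64 and 9.57 in the control samples (difference -0.60). In each of the 5 genes the deleted sample 1 was the lowest and the groups were separate. Ccdc73 differed by -1.01 and Syt10 by -0.10, both at dim signal (percentiles 12.17 and 8.7).

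Fxyd1 encodes phospholemman, a target of protein kinases A and C that regulates the pump in heart and muscle. It had 1 probe set, with 8.61, 9.26 and 8.72 in the deleted samples, against 8.58, 8.37 and 8.49 in the control samples. All deleted values were above all control values, by a gap of only 0.03, and the deleted sample 2 was the highest. The means were 8.86 ± 0.35 in the deleted and 8.48 ± 0.10 in the control group, a difference of 0.38 (SE 0.20, interval -0.09 to 0.85). Without the deleted sample 2 the difference was 0.18, and without the deleted sample 1 it was 0.51. The genes with the most similar pattern were Cyct (r = 0.99), Rangrf (r = 0.99) and Gpr143 (r = 0.99), in each of which the deleted sample 2 was the highest array.

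Fxyd3 encodes Mat-8, a regulator first isolated from mouse mammary tumors. Its signal was 11.78, 12.42 and 12.33 in the deleted samples, against 12.26, 12.56 and 12.43 in the control samples. The deleted sample 1 was the lowest of all 6, and the other two deleted samples lay within the control range. The difference was -0.24 (SE 0.20, interval -0.72 to 0.23), and it was -0.05 without the deleted sample 1. The mean of the 8 epithelial markers was lowest in that same sample (11.77, against 12.04 to 12.29 in the control samples), and its part in the result was not tested. Ubxn2a, Cxcr3 and Stx19 had the most similar patterns (r = 0.99 each).

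Fxyd5 encodes dysadherin, a glycoprotein that is known to weaken cell adhesion by E-cadherin. It had 13.29, 13.56 and 13.48 in the deleted samples, against 13.38, 13.42 and 13.12 in the control samples. The groups overlapped, and the difference was 0.14 (SE 0.15, interval -0.22 to 0.50). The most similar patterns were those of 4930556N09Rik (r = 0.999), Gm4047 (r = 0.99) and Nmi (r = 0.98).

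Fxyd6 encodes phosphohippolin, described mainly in brain. Its signal was 8.95, 8.92 and 9.05 in the deleted samples, against 9.24, 8.91 and 9.53 in the control samples. The deleted samples lay close together and the control sample 2 lay below all of them, so the groups overlapped. The difference was -0.25 (SE 0.18, interval -0.68 to 0.18), and ran between -0.41 without the control sample 2 and -0.10 without the control sample 3. It was 0.03 when the arrays were weighted by their fit. The control sample 2 then weighed 8.32, against 0.79 for the control sample 1 and 0.38 for the control sample 3. Pcsk5, Rita1 and Arhgap31 had the most similar patterns (r = 0.99 each).

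Atp1b1 encodes the widespread beta subunit and was read by 5 probe sets. The brightest, 1451152_a_at, had 10.75, 11.10 and 10.60 in the deleted samples, against 11.07, 11.09 and 10.64 in the control samples, which overlapped. The difference was -0.12 (SE 0.20, interval -0.58 to 0.35). At 1423890_x_at it was -0.11, and this was the only 1 of the 14 probe sets whose sign turned when 1 array was left out (0.03 without the deleted sample 3). Both followed each other at r = 0.95 over the 6 arrays. At 1418453_a_at the signal was 7.11, 7.19 and 7.03 in the deleted samples, against 7.50, 7.31 and 7.29 in the control samples. This was the only Atp1b1 probe set with separate groups, by a gap of 0.10, and its difference was -0.26 (interval -0.58 to 0.06). At 1439036_a_at the signal was 6.56, 7.37 and 6.99 in the deleted samples, against 7.20, 7.60 and 7.71 in the control samples. Its difference of -0.53 (interval -1.10 to 0.04) was the largest for the gene, though the groups overlapped. At 1455949_at the deleted samples had 6.10, 5.79 and 5.63, against 5.77, 5.47 and 5.65 in the control samples, a difference of 0.21. The 5 probe sets thus gave 4 lower differences and 1 higher. The closest patterns to 1451152_a_at were those of Trim17 (r = 0.99), Orc4 (r = 0.98) and Gad1os (r = 0.98).

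Atp1b3 encodes another beta subunit, also found on leukocytes as CD298. It had 12.35, 12.61 and 12.52 in the deleted samples, against 12.40, 12.41 and 12.30 in the control samples. The groups overlapped, with the deleted sample 1 inside the control range, and the difference was 0.12 (SE 0.14, interval -0.20 to 0.45). Gm19723 (r = 0.99), Phex (r = 0.98) and Nufip1 (r = 0.98) had the most similar patterns. The 2 beta subunits, read by their brightest probe sets, thus had differences of opposite sign, each with an interval that held 0.

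**Figure D3:**
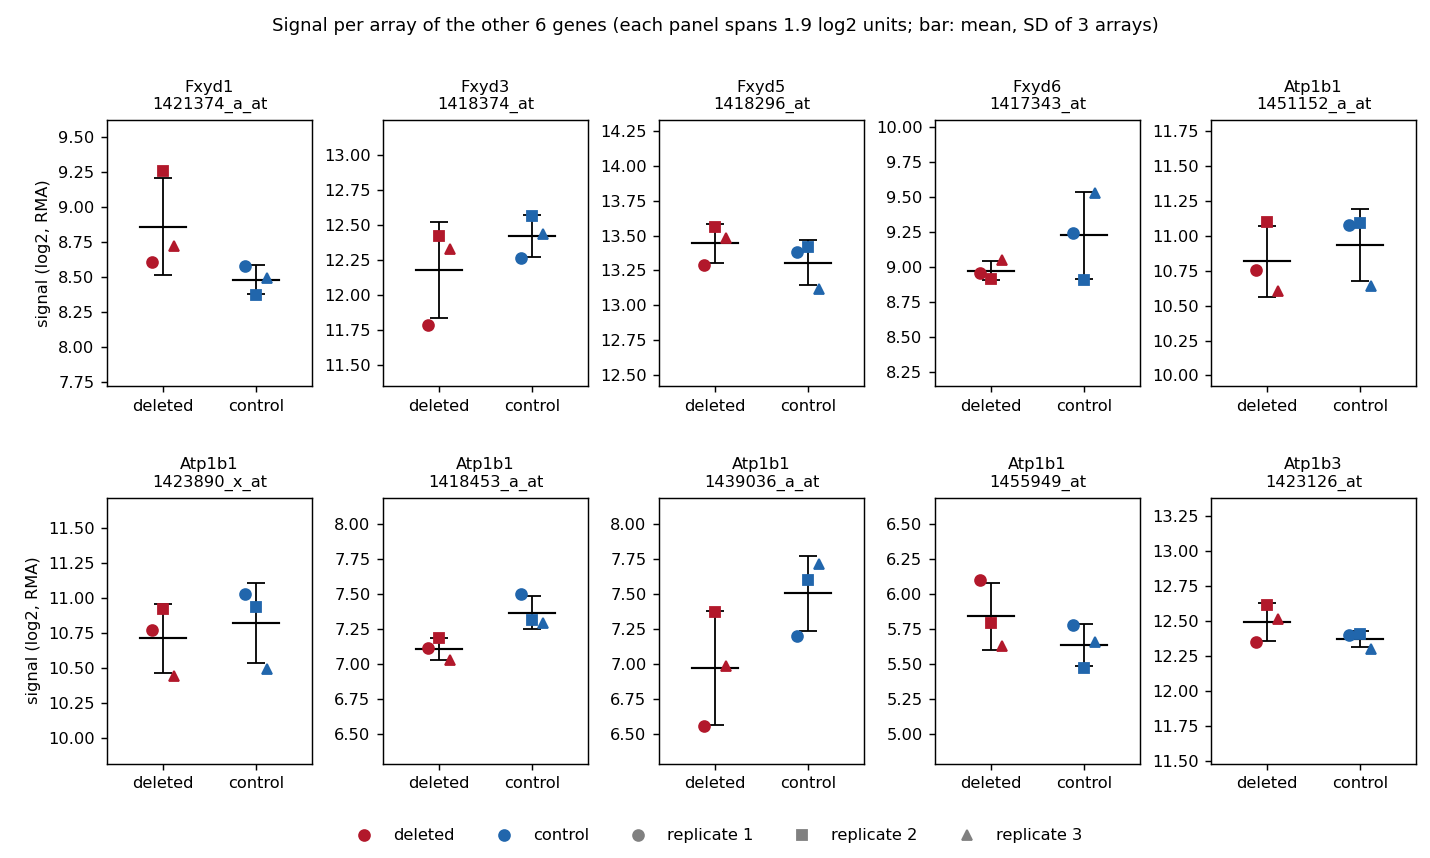
Signal per array (log2 RMA, vertical axis, equal span in each panel) of the other 6 genes at their 10 probe sets, deleted samples in red and control samples in blue, with lines for the mean and SD of 3 arrays. The groups are separate only at Fxyd1 and at 1418453_a_at of Atp1b1.

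The FXYD genes of this set lie in 2 clusters in the mouse genome, by the order of genes in RefSeq. On chromosome 7, Fxyd5, Fxyd7, Fxyd1 and Fxyd3 lie close together, with Lgi4 between Fxyd1 and Fxyd3. Their differences were 0.14 for Fxyd5, 0.15 for Fxyd7, 0.38 for Fxyd1, -0.06 for Lgi4 and -0.24 for Fxyd3, and the interval of each held 0. On chromosome 9, Fxyd6 and Fxyd2 lie side by side, between Tmprss13 and 4833428L15Rik. The differences there were -0.25 for Tmprss13, -0.25 for Fxyd6, -1.27 for Fxyd2 and -0.02 for 4833428L15Rik. Of these 4 genes, Fxyd2 alone had groups without overlap.

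Further genes of the pump and its relatives were taken from a list of 12, of which 8 were measured. They included Atp1a4 (-0.05), a catalytic subunit of sperm, the beta subunit Atp1b2 (0.03) and its relative Atp1b4 (-0.00). The regulators Fxyd4 (-0.08) and Fxyd7 (0.15) were also listed, with Nkain1 (0.34), Nkain2 (-0.07) and Nkain4 (0.24), which encode proteins that interact with the pump. These differences were split into 4 lower and 4 higher, with a median of 0.01, no gene with separate groups and none past the adjusted threshold. Most of these genes were dim, where RMA compresses differences. Atp1b2 lay at signal percentile 68.6 and every other gene of the list at 38.6 or lower, down to 2.63 for Atp1b4. Nkain1, with the largest difference of the list, averaged 6.19 ± 0.28 in the deleted and 5.85 ± 0.21 in the control group, with overlapping values. A list of 14 transporters and kinases that work with the sodium gradient had 12 measured genes, 7 lower and 5 higher, again without separate groups or adjusted calls, and with a median of -0.06. Its largest differences were -0.28 for Nedd4l, a ubiquitin ligase of the epithelial sodium channel, and -0.27 for Scnn1g, a subunit of that channel. On the higher side they were 0.22 for Oxsr1, a kinase of chloride cotransporters, and 0.07 for Slc12a7, a potassium-chloride cotransporter. Of these 4, only Nedd4l kept its sign with each array left out, since Scnn1g was at 0.09 and Oxsr1 at -0.0007 without the control sample 3, and Slc12a7 was at -0.18 without the deleted sample 1.

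Marker lists of the cells that a CD31 sort could hold were read beside these values. The macrophage list was lower in the deleted samples at 8 of 8 genes, 5 of them with separate groups, and its mean per sample was 8.28 to 8.91 in the deleted and 9.12 to 9.83 in the control group. The fibroblast list was lower at 9 of 9 genes, 5 of them separate, with 9.07 to 9.32 in the deleted and 9.57 to 10.07 in the control group. The means of both lists thus had separate groups. Of all tested probe sets, 2.83% were separate in the lower direction, a share of single probe sets and not of list means. The lymphatic endothelial list was lower at 5 of 5 genes (8.76 to 9.35 in the deleted, 9.24 to 10.09 in the control group) and the epithelial list at 7 of 8 (11.77 to 12.20 in the deleted, 12.04 to 12.29 in the control group), with overlap. The endothelial list was higher at 8 of 8 genes (12.15 to 12.63 in the deleted, 11.89 to 12.47 in the control group), and the pericyte and smooth muscle list at 5 of 6 (10.36 to 10.43 in the deleted, 9.98 to 10.39 in the control group), with overlap as well. Of the lymphocyte list 2 of 6 genes were lower, of the adipocyte list 2 of 3, of the Schwann cell list 2 of 2 and of the skeletal muscle list 1 of 5, without separate groups in any gene. No gene of these lists passed the adjusted threshold, and their part in the difference of Fxyd2 was not tested. In sorted bulk samples, fewer cells of a type and less RNA per cell cannot be told apart.

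**Figure D4:**
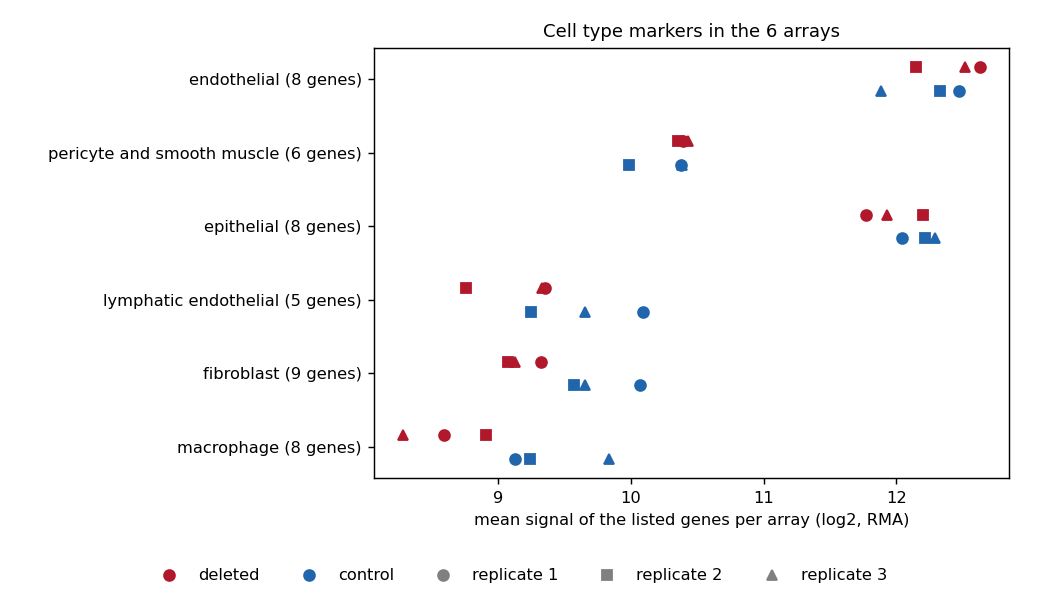
Mean signal of the listed marker genes in each sample (log2 RMA, horizontal axis), deleted samples in red above control samples in blue. The groups are separate for the fibroblast list (9.07 to 9.32 in the deleted, 9.57 to 10.07 in the control group) and the macrophage list (8.28 to 8.91 in the deleted, 9.12 to 9.83 in the control group), and overlap for the other 4 lists.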

How the data were processed

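The authors deposited log2 values of Affymetrix Mouse Genome arrays, 1 array per sample, made by RMA, which subtracts background, normalizes by quantiles and combines the probes of a set. The RMA version was not given in the sources read here, and the method compresses differences where signal is dim. No scaling was added. The table had 45101 probe sets, and after removal of 64 array controls all 45037 entered the test, with no signal filter. The platform annotation gave 34945 of them 1 gene (34741 matched to RefSeq by gene number), 932 several genes and 9160 no gene named here.

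Groups were compared with the lmFit and eBayes functions of limma 3.58.1, run in R 4.3.3 (two-sided, no covariates, Benjamini-Hochberg adjustment over all tested probe sets). A run of this step on simulated, independent arrays checked the code, and not its power for differences of the sizes described here. Precision is limited by the array number: the 95% interval reached 0.45 to each side at the median over all tested probe sets. At most 0.22% of values were equal between any 2 arrays.

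The rule for named genes took every probe set of the 7 genes, the brightest over the 6 arrays standing for its gene, 3 genes of most similar Pearson r for each (5 for Fxyd2), the nearest measured genome neighbours, all measured genes of the pump list, and the 2 largest differences in each direction of the transport list. The genes and lists were chosen with earlier results of these data known. Alternatives were array weights, a trended and robust prior, a filter on signal under the median, centring, a further quantile normalization, the replicate block, unmoderated tests, other ways to represent a gene and leaving out each array.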

Additional observations from a re-analysis of the deposited data

How the results depend on the processing

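Fxyd2 was lower in the deleted group under all alternatives run. That sign is no support, since the gene was picked for this same difference. The groups were separate at its brightest probe set, so leaving out 1 array could not turn the sign. Its most variable probe set was that same one, and 1449883_at, at 0.10, was not run alone as an alternative. The Fxyd2 difference of -1.27 became -0.61 as the mean of its 4 probe sets and ran between -1.41 and -1.03 with 1 array left out. The lower probe sets numbered 9 of 14, or 4 of 7 with the brightest of each gene alone, and 8 to 9 with 1 array left out. Of 80 differences of the other genes under the alternatives, 78 moved by less than the SD between replicates. The others were Atp1b1, at -0.53 with its most variable probe set, and Fxyd6, at 0.03 with array weights, the only sign turned. That measure was weak for many of the 80. Leaving out 1 of 3 arrays cannot move a difference by more than this SD. The signal filter and the trended and robust prior leave the difference itself unchanged. The count past an adjusted p of 0.05 in limma was 0 throughout. The count of 58 at the limits of the study (over 2-fold, p under 0.05 without adjustment) was 152 with array weights, 15 above the median signal and 18 with unmoderated unequal-variance tests. With 1 array left out it ran between 61 and 191, namely 153 without the control sample 1, 90 without the control sample 2, 191 without the deleted sample 2 and 159 without the deleted sample 3. The array weights gave the control sample 2 a weight of 8.32 and each other array 0.99 or less. The weighted control means thus rested mostly on that sample. The causes were not tested.

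The animal identifiers of 2 deleted and 2 control samples begin with shared numbers. Their deviations from the group means correlated at 0.17 and -0.02, and the labels do not say what the number marks, so these 2 pairs do not settle whether it pairs the samples. With the fixed replicate block the count was 317 and Fxyd2 differed by -1.49, and with a random block the count was 64 and the difference -1.29, with 9 of 14 probe sets lower and 0 adjusted calls in both. RMA values hold no counts, and of the 4 probe sets with a mean under the median signal 3 were of Fxyd2.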
